A study of Mus musculus with 6 samples.

Results

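The genes described here are splicing factor genes of mouse microglia, the resident macrophages of the brain and spinal cord. They were taken by name: every gene symbol that begins with Srsf and a digit, Hnrnp, Sf3a or Sf3b and a digit, or Snrp, with at least 50 counts over both RNA-seq libraries. Of 55 matching symbols, 51 had enough counts, among 14367 genes that passed the same minimum. Srsf12 had 3 counts in the peak library and 1 in the naive library, and the pseudogenes Snrp1c-ps2, Hnrnpa1l2-ps and Hnrnpa1l2-ps2 were at 0 in both. The 51 genes were 10 SR proteins, 19 hnRNP proteins, 9 subunits of the SF3A and SF3B complexes, 7 proteins of the Sm ring, 4 proteins specific to the U1 or U2 particle, and Snrpn with Snrpert. The name rule covers only some splicing factors, and it takes in Snrpert, which RefSeq lists as a pseudogene.

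Cells came from mice with experimental autoimmune encephalomyelitis (EAE), an autoimmune model of multiple sclerosis, at the peak of disease, and from naive mice. EAE had been induced with a myelin oligodendrocyte glycoprotein peptide (residues 35 to 55) in Ccr2rfp/+::Cx3cr1gfp/+ mice, which carry a fluorescent reporter in 1 copy of each of these genes, at 24 to 28 weeks of age. The peak was the second day without a further increase in clinical score. All samples are labelled C57Bl/6; the labels give no separate genotype or age for the naive mice, and mention no injection of adjuvant alone. Cells of 30 mice were pooled per condition, separated on a Percoll gradient and sorted with antibodies to F4/80, a macrophage antigen, and CD45, a leukocyte antigen that microglia also carry. The design text names brains only, and the protocol brains and spinal cords. Each condition gave 1 RNA-seq library, with 36561934 counts at the peak and 31282093 counts in naive cells. Methylated DNA was sequenced in 2 libraries per condition by MiGS, a method that pulls out methylated fragments with a protein domain that binds methylated CpG. With 1 library per condition, the RNA comparison has no replicate check and no p-value. Its ratios are counts at the peak over naive counts after TMM scaling, and its intervals are exact (Clopper-Pearson) 95% intervals that cover counting error only.

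Splicing removes introns from precursor mRNA. The spliceosome is built on each intron from small nuclear RNAs that carry a ring of Sm proteins, from particle-specific proteins such as those of U1 and U2, and from the SF3A and SF3B complexes, which help the U2 particle to bind the branch point. SR proteins bind exons and mostly favour their use, whereas hnRNP proteins coat the transcript and often oppose the use of nearby splice sites. These proteins are made in nearly all cells, and several regulate their own mRNA through splicing to forms that are degraded.

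The base sequence before the start of 4 members is given first, because they mark the ends of the RNA comparison and of the methylation data. Hnrnpa1, Snrpd2 and Snrpf were among the 4 members at least 2-fold higher at the peak, and Snrpn was the member with the lowest ratio and the most captured DNA at a start. Each line holds the 150 bases before a RefSeq transcript start (GRCm38.p6), written 5′ to 3′ on the strand of the gene, with CpG pairs, the sites of DNA methylation, in capitals.
Hnrnpa1, chr15:103240247-103240396, plus strand: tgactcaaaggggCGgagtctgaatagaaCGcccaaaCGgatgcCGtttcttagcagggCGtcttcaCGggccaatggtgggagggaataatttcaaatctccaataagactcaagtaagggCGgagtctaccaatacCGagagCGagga
Snrpd2, chr7:19149688-19149837, plus strand: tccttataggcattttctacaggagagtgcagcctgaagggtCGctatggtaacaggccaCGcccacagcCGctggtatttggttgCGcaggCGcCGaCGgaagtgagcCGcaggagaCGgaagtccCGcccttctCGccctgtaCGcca
Snrpf, chr10:93589659-93589808, minus strand: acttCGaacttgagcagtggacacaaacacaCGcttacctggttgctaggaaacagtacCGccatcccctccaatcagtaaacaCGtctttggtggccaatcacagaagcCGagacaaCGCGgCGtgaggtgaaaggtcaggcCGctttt
Snrpn, chr7:60005200-60005349, minus strand: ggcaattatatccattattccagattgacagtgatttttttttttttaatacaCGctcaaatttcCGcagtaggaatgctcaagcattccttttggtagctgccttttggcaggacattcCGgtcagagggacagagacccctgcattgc
These stretches held 9, 12, 9 and 3 CpG pairs in the order printed. The Hnrnpa1, Snrpd2 and Snrpn stretches lie within the span of their own gene in RefSeq. The Snrpf stretch overlaps the RefSeq span of 4933408J17Rik, and the Snrpn stretch overlaps that of Snhg14.

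As a group, the splicing factor genes stood slightly higher at the peak of EAE than in naive microglia. Their median log2 ratio was 0.41 (1.33-fold), beside -0.00 for all 14367 genes. The ratio was above 1 for 48 of 51 members, beside 49.8% of all genes. The counting interval lay wholly above 1 for 43 members (38.5% of all genes) and wholly below 1 for 1 member (37% of all genes), and it held 1 for 7 members. Summed over the members, TMM-scaled CPM (counts scaled to library size) were 6407 at the peak and 4762 in naive cells. Large ratios were few. A ratio of at least 2 was reached by 4 of 51 members, beside 11.6% of all genes, and no member was at least 2-fold lower, beside 9.35% of all genes. At 1.5-fold, 17 members were higher, beside 20.4% of all genes, and 1 was lower, beside 18.4%. The members had a higher median RNA level than all genes, as given below. Genes with more counts have narrower intervals and steadier ratios, and these shares were not matched for level. With upper quartile scaling 1 member (Snrpd1) was past 2-fold and 10 were past 1.5-fold on the higher side. The members lay between log2 ratios of -0.76 and 1.16, while all genes ran from -5.52 to 10.42.

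**Figure D1:**
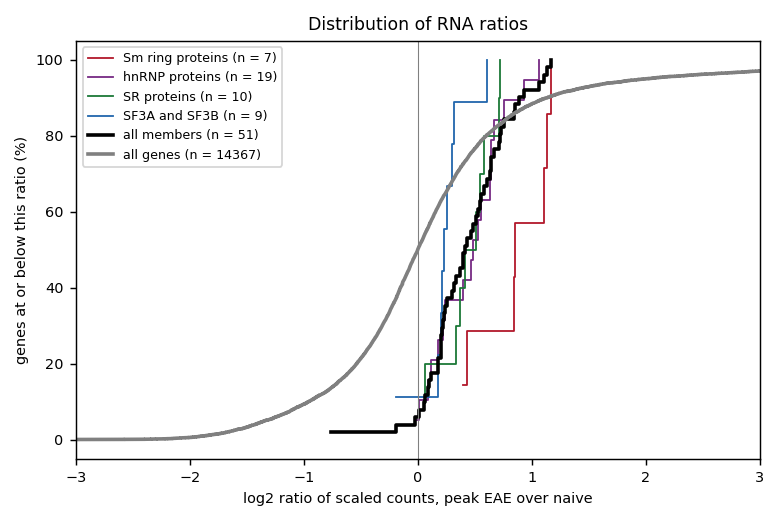
Percentage of genes at or below each log2 ratio of TMM-scaled counts, peak EAE over naive, for 4 families of splicing factors, all 51 members and all 14367 genes (x axis limited to log2 values between -3 and 3). The line of the members crosses its middle at 0.41 and is steeper than the line of all genes, whose middle lies at -0.00.

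The scaling sets where the zero of these ratios lies. Another scaling shifts the log2 ratio of every gene by 1 common amount, so the gap between members and all genes stays as given under each scaling. The median of all genes was -0.09 with library totals and -0.14 with upper quartile scaling, and 0.00 with DESeq2 size factors. With library totals 44 of 51 members remained above 1, and with upper quartile scaling 42 of 51. The members that were above 1 after TMM scaling and below it with library totals were Hnrnph3, Hnrnpul1, Srsf4 and Srsf9, and upper quartile scaling added Hnrnpul2 and Snrpc.

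The Sm ring, the shared protein core of the U1, U2, U4 and U5 particles, had the highest median of the families. All 7 of its members were above 1 under each scaling tried, with a median log2 ratio of 0.85 (1.80-fold). Snrpd1 had 545 counts at the peak and 221 in naive cells, a ratio of 2.24 (95% interval 1.92 to 2.64). Snrpd2 had 578 counts at the peak and 239 in naive cells, a ratio of 2.20 (1.89 to 2.57). Snrpf had 121 counts at the peak and 51 in naive cells, a ratio of 2.15 (1.54 to 3.06). The intervals of these 3 subunits include 2, so the 2-fold line itself is not resolved by counting, but all lie above 1.5. Snrpg had 258 counts at the peak and 130 in naive cells (1.80-fold, interval 1.46 to 2.25), and Snrpe had 401 and 203 (1.80-fold, 1.51 to 2.14). The remaining subunits stood lower: Snrpd3 had 458 counts at the peak and 309 in naive cells (1.35-fold, interval 1.17 to 1.56), and Snrpb had 4192 and 2907 (1.31-fold, 1.25 to 1.38). The intervals of Snrpd3 and Snrpb do not reach those of Snrpd1 and Snrpd2, so the subunits of this ring, present once each in the assembled ring, differed in ratio beyond counting error.

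Most of the highest Sm ratios belong to short genes, and short genes were higher at the peak in general. Length here is the one implied by the deposited counts and FPKM values, and it can differ from the length of a transcript. Sf3b5 came out at 3841 bases, although its RefSeq span is shorter than 1 kb. By this length Snrpd1, Snrpd2, Snrpf and the pseudogene Snrpert are the 4 members under 1 kb, with a median log2 ratio of 1.12. The 1397 genes of that length had a median of 0.40, and 23.8% of them were at least 2-fold higher. Among genes of at least 4 kb the median was -0.12 over 6353 genes and 0.41 over the 21 members in that class, so the members stood above genes of their own length there as well. Over the 51 members, log2 length and log2 ratio had a Pearson's r of -0.26 and a Spearman's rho of -0.15, which describes genes of 2 libraries only. The part of length in the Sm ring ratios was not tested.

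Snrpn, the neuronal relative of Snrpb and an imprinted gene, was the only member at least 1.5-fold lower. It had 27 counts at the peak and 42 in naive cells, a ratio of 0.59 (interval 0.35 to 0.97), and it is among the 2 members that fail a minimum of 200 counts. Its level was 0.34 FPKM at the peak and 0.62 FPKM in naive cells, against 58.0 and 47.0 FPKM for Snrpb. Snrpn shares its locus with Snurf and Snhg14 and close sequence with Snrpb, so its few counts are uncertain. Snrpert had 272 counts at the peak and 149 in naive cells (1.66-fold, interval 1.36 to 2.04). A ratio near that of Snrpe, whose symbol it carries, is given with the same reservation, since reads of near-identical copies can be split between them.

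Among proteins specific to the U1 or U2 particle, 1 of 4 stood apart. Snrpa1, the A′ protein of the U2 particle, had 1171 counts at the peak and 576 in naive cells (1.85-fold, interval 1.67 to 2.05). Its partner on the U2 RNA, Snrpb2, had 1427 counts at the peak and 1130 in naive cells (1.15-fold, 1.06 to 1.24). The intervals of these partners do not meet. The U1 proteins were near 1: Snrpa had 909 counts at the peak and 717 in naive cells (1.15-fold, 1.04 to 1.27), and Snrpc had 360 and 307 (1.07-fold, 0.91 to 1.25).

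The SF3A and SF3B complexes had a lower median than the Sm ring, at a log2 ratio of 0.23 (1.17-fold), and 8 of 9 subunits were above 1. Sf3b5, a small subunit of SF3B, was the only one past 1.5-fold after TMM scaling. It had 787 counts at the peak and 471 in naive cells (1.52-fold, interval 1.35 to 1.71). With library totals and with upper quartile scaling Sf3b5 lay under 1.5-fold. Sf3b1, the large scaffold subunit and a frequent target of mutation in human blood cancers, had 31325 counts at the peak and 22865 in naive cells (1.25-fold, 1.23 to 1.27). Sf3b6, the subunit that contacts the branch point adenosine, had 1174 counts at the peak and 866 in naive cells (1.23-fold, 1.13 to 1.35). At the low end were Sf3b2 (6828 counts at the peak and 5418 in naive cells, 1.15-fold, 1.11 to 1.19) and Sf3a2 (634 and 510, 1.13-fold, 1.01 to 1.27). Sf3b4 was the only subunit below 1, with 349 counts at the peak and 364 in naive cells, a ratio of 0.87 whose interval (0.75 to 1.01) includes 1.

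All 10 SR proteins were above 1 after TMM scaling, with a median log2 ratio of 0.46 (1.38-fold); Srsf4 and Srsf9 lay below 1 with library totals and upper quartile scaling. The highest were Srsf2, known for exon inclusion and for mutations in myeloid malignancies, with 9895 counts at the peak and 5463 in naive cells (1.65-fold, interval 1.59 to 1.70), and Srsf1, the founding member of the family, with 7312 and 4068 (1.64-fold, 1.57 to 1.70). Srsf5 followed with 8588 counts at the peak and 5236 in naive cells (1.49-fold, 1.44 to 1.55). Srsf6, Srsf3, Srsf10, Srsf11 and Srsf7 lay between 1.26-fold and 1.45-fold. The lowest were Srsf4, with 1671 counts at the peak and 1454 in naive cells (1.05-fold, 0.97 to 1.12), and Srsf9, with 3281 and 2883 (1.04-fold, 0.98 to 1.09). The intervals of Srsf4 and Srsf9 include 1, so counting does not separate both libraries for them.

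**Figure D2:**
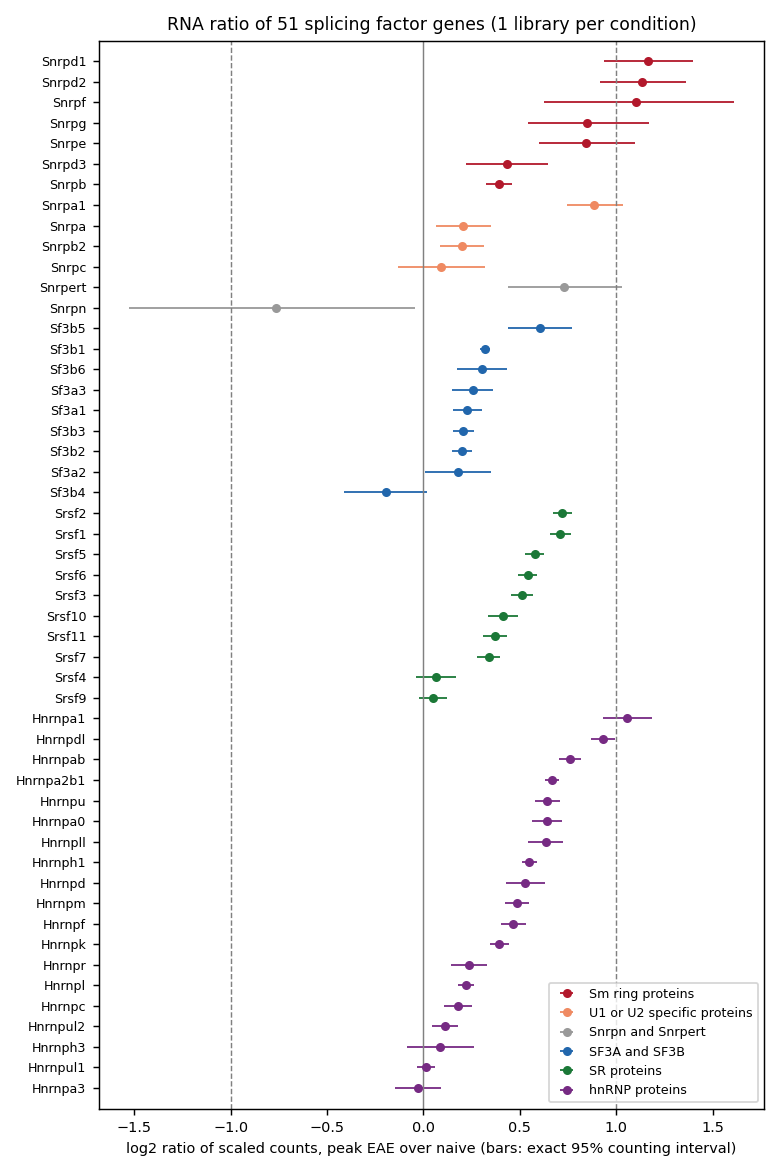
Log2 ratio of TMM-scaled counts, peak EAE over naive, for each of the 51 splicing factor genes, ordered by family and ratio, with exact 95% counting intervals as bars. The dashed lines mark 2-fold; Snrpd1, Snrpd2, Snrpf and Hnrnpa1 lie past the right one, and Snrpn has the lowest ratio, at -0.76.

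The 19 hnRNP proteins had a median log2 ratio of 0.49 (1.40-fold) and the widest range among families of more than 2 genes. Hnrnpa1, an antagonist of SR proteins in splice site choice, had 1721 counts at the peak and 752 in naive cells, a ratio of 2.08 (interval 1.91 to 2.27) that lay under 2 with library totals and upper quartile scaling. Hnrnpdl had 6108 counts at the peak and 2915 in naive cells (1.91-fold, 1.82 to 1.99), and Hnrnpab had 6859 and 3689 (1.69-fold, 1.62 to 1.76). Processed copies of Hnrnpa1 are common in mammalian genomes, and the sources used here do not say how reads with several matches were counted, so its count is uncertain.

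After TMM scaling, 4 further hnRNP genes stood past 1.5-fold. With library totals and with upper quartile scaling all of them lay under 1.5-fold. Hnrnpa2b1, which also binds RNA modified at adenosine and sorts RNA in cells, had 15258 counts at the peak and 8750 in naive cells (1.59-fold, interval 1.55 to 1.63). Hnrnpu, a nuclear matrix and chromatin-associated RNA-binding protein, had 5054 counts at the peak and 2947 in naive cells (1.56-fold, 1.49 to 1.63), and Hnrnpa0 had 3796 and 2214 (1.56-fold, 1.48 to 1.65). Hnrnpll, known in lymphocytes as the factor that drives skipping of variable exons of Ptprc (CD45), had 2659 counts at the peak and 1558 in naive cells (1.55-fold, 1.46 to 1.65). Hnrnph1, Hnrnpd, Hnrnpm, Hnrnpf, Hnrnpk, Hnrnpr, Hnrnpl, Hnrnpc and Hnrnpul2 followed between 1.46-fold and 1.08-fold.

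Some relatives among the hnRNP genes differed in ratio beyond counting error, in pairs picked after their values were seen. Hnrnpa3, a relative of Hnrnpa1 and Hnrnpa2b1, had 1186 counts at the peak and 1100 in naive cells, a ratio of 0.98 (0.90 to 1.07). Hnrnph3 had 577 counts at the peak and 494 in naive cells (1.06-fold, 0.94 to 1.20), below its relative Hnrnph1, which had 13853 and 8614 (1.46-fold, 1.42 to 1.503). Hnrnpul1 had 8154 counts at the peak and 7354 in naive cells (1.01-fold, 0.98 to 1.04), below Hnrnpu. The intervals of Hnrnpa3, Hnrnph3 and Hnrnpul1 include 1 and do not meet those of the relatives named beside them. The intervals of other relatives do meet: those of Hnrnpul1 and Hnrnpul2 (1.08-fold, 1.03 to 1.13), and those of Hnrnph1 and Hnrnpf (1.38-fold, 1.32 to 1.44).

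The level of the members, as FPKM (the authors' values, normalised for a length per gene and library totals), spanned more than the ratios did. Median levels were 24.5 FPKM at the peak and 14.6 FPKM in naive cells over the members, beside 5.98 and 5.80 FPKM over all genes. Srsf2 was highest at the peak, with 91.5 FPKM and 59.0 FPKM in naive cells. Next came Sf3b1 (75.4 FPKM at the peak and 64.3 FPKM in naive cells), Hnrnpab (67.4 and 42.4), Srsf9 (66.0 and 67.8), Hnrnph1 (64.9 and 47.1) and Srsf7 (63.9 and 53.8). Hnrnpa2b1 (63.4 FPKM at the peak and 42.5 FPKM in naive cells), Hnrnpul1 (62.1 and 65.5), Srsf5 (58.9 and 42.0) and Snrpb (58.0 and 47.0) completed the highest 10. In naive cells Srsf9 led with 67.8 FPKM, ahead of Hnrnpul1 and Sf3b1, and at the peak Srsf2 led. Neither library has a replicate, so the error of this order is not known. Among members, the ratio did not follow the level: log2 naive FPKM and log2 ratio had a Pearson's r of 0.08 and a Spearman's rho of -0.07 over 51 genes. Over all genes the median log2 ratio went with the level, from -0.45 in 2408 genes under 2 FPKM summed over both libraries to 0.23 in 917 genes over 100 FPKM. In the class of 10 to 40 FPKM, 19 members had a median of 0.37 beside 0.05 for all 5206 genes, and in the class over 100 FPKM, 11 members had 0.39.

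**Figure D3:**
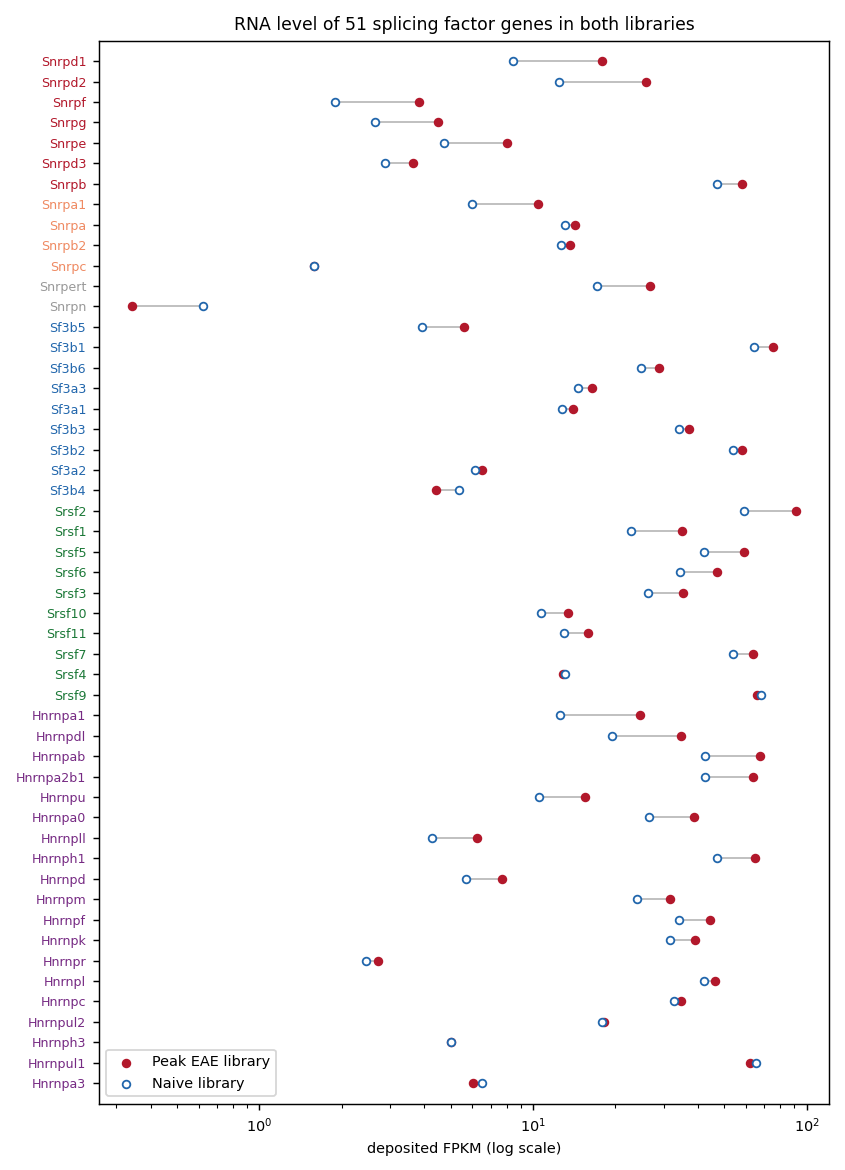
Deposited FPKM of the 51 splicing factor genes on a log axis, filled points for the peak EAE library and open points for the naive library, 1 library each. Srsf2 has the highest level at the peak (91.5 FPKM) and Snrpn the lowest (0.34 FPKM); the open point lies left of the filled one for most genes.

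Other genes of the splicing pathway were read from 8 lists outside the name rule. Their medians lay below that of the members. Among all 14367 genes, 11.6% were past 2-fold on the higher side and 9.35% on the lower side. No list reached either share. Of 10 LSm ring genes, most of whose products sit on U6 RNA or act in mRNA decay, 1 was at least 2-fold higher and the median log2 ratio was 0.22. Of 27 measured genes of U1, U5, U11/U12 and tri-snRNP proteins under other names, 2 were at least 2-fold higher (median 0.18). Of 20 exon junction and export genes 1 was at least 2-fold higher (median 0.34), and of 34 other regulators 1 was at least 2-fold lower (median 0.11). The lists of U2AF and branch point genes (9 measured, median 0.23), SMN complex and Sm assembly genes (13, median 0.17), SR protein kinases and SR-related genes (18, median 0.12) and Prpf19 complex and catalytic genes (25, median -0.08) had no gene past 2-fold in either direction. The last of these lists holds proteins that form and remodel the active site, and its median lay just below that of all genes. With upper quartile scaling the medians of the SR kinase list and of the other regulators lay below 0 too. That scaling also moved the median of all genes to -0.14, so both lists stayed above all genes.

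Single genes of these lists had ratios as large as the highest members. Lsm4, a subunit of the LSm ring, had 872 counts at the peak and 303 in naive cells (2.62-fold, interval 2.30 to 2.99), and Lsm2 had 410 and 201 (1.85-fold, 1.56 to 2.21). Snrnp25, a protein of the minor U11/U12 particle, had 246 counts at the peak and 97 in naive cells (2.30-fold, 1.82 to 2.95). Prpf31, a tri-snRNP protein, had 2185 counts at the peak and 993 in naive cells (2.002-fold, 1.86 to 2.16), and with library totals or upper quartile scaling it lay under 2-fold. Thoc6, of the THO export complex, had 811 counts at the peak and 333 in naive cells (2.21-fold, 1.95 to 2.53), and Ddx39, an export helicase, had 2324 and 1123 (1.88-fold, 1.75 to 2.02). On the assembly side Gemin6, of the SMN complex that loads Sm proteins onto RNA, had 301 counts at the peak and 162 in naive cells (1.69-fold, 1.39 to 2.06), and Smn1 had 473 and 314 (1.37-fold, 1.19 to 1.59).

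The named genes of these lists below 1 included several regulators. Khdrbs3, a splicing regulator best known from the brain, had 492 counts at the peak and 1264 in naive cells, a ratio of 0.35 (interval 0.32 to 0.39). Rbfox1 had 111 counts at the peak and 201 in naive cells (0.50, 0.39 to 0.64), and Rbfox2 had 182 and 305 (0.54, 0.45 to 0.65). Srrm2, a very large SR-related protein, had 18646 counts at the peak and 24236 in naive cells (0.70, 0.69 to 0.71), below 1 while all SR proteins of the name rule were above it after TMM scaling. Zrsr1, a relative of U2AF, had 323 counts at the peak and 485 in naive cells (0.61, 0.52 to 0.70).

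**Figure D4:**
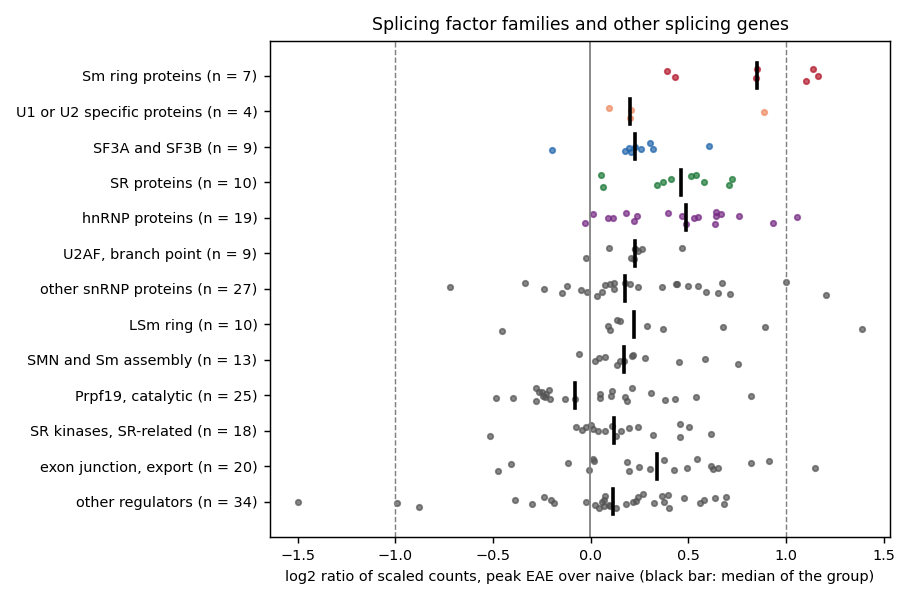
Log2 ratio of TMM-scaled counts, peak EAE over naive, for the genes of 5 families of splicing factors (coloured) and 8 lists of other splicing genes (grey), each point a gene and each black bar the median. The Sm ring has the highest median (0.85) and the Prpf19 and catalytic list the lowest (-0.08); the dashed lines mark 2-fold.

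Markers of dividing cells and of monocytes differed between the same libraries by far more than the splicing factors did. Of 12 genes of cycling cells, 11 were at least 2-fold higher at the peak, and their summed level was 972 CPM at the peak and 97.1 in naive cells. Monocyte markers were at least 2-fold higher for 9 of 10 genes and summed to 1235 CPM at the peak and 51.1 CPM in naive cells. Most of the peak sum came from Fn1 alone, with 35840 of 43772 counts at the peak and 816 of 1650 in naive cells. Ccr2 was the marker short of 2-fold, at 1.78-fold. Microglia markers remained abundant, at 28038 CPM at the peak and 41756 CPM in naive cells, with P2ry12 at 60990 counts at the peak and 115890 in naive cells. T cell markers were few, with 13.0 CPM at the peak and 4.46 in naive cells; Cd8a, Cd3g and Cd3e were at 0 in naive cells. Neutrophil markers summed to 21.4 CPM at the peak and 18.01 CPM in naive cells, with 2 of 6 measured genes past 2-fold on each side, and Ly6g at 2 counts at the peak and 0 in naive cells. Astrocyte markers summed to 352 CPM at the peak and 639 in naive cells, endothelial markers to 100.02 and 180, and erythroid markers to 48.4 and 164. Oligodendrocyte markers summed to 179 CPM at the peak and 169 CPM in naive cells, and neuron markers to 10.7 and 12.03. The sums hide single genes. Of 7 measured oligodendrocyte markers 5 were below 1, and 2 (Cnp and Mag) were above it. Of 8 astrocyte markers 6 were below 1, and 2 (Gfap and Aldh1l1) were above it, Gfap at 2.63-fold. In bulk RNA, more cells of a type and more RNA per cell cannot be told apart. The part of these markers in the splicing factor ratios was not tested.

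MiGS gave the captured methylated DNA at the same genes, as signal scaled by the authors. At their starts, nearly all splicing factor genes had no captured reads. RefSeq gave 61 start windows (250 bases before to 50 after a start) for 44 members; Hnrnpll, Hnrnpul2, Sf3b4, Sf3b5, Snrpb, Snrpd1 and Snrpert had none. Counting 500 bp to each side, 54 of the 61 windows (88.5%) had 0 reads in all 4 libraries, beside 68.1% of 20085 start windows of protein-coding and member genes. The windows are rich in CpG pairs: the median was 25 pairs in 300 bases, beside 14 in all, and the ratio of observed to expected CpG was above 0.6 in 90.2%, beside 48.9%. Windows of 1 gene share sequence and are not independent, and no test was made.

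Both members with more than 20 reads at a start were Snrpn and Snrpf. At the Snrpn start on chr7 (60005150 to 60005449, minus strand), part of which is printed above, summed window reads were 106 and 296 at the peak and 166 and 475 in naive cells. In scaled signal this was 87.8 and 242 at the peak, against 188 and 552 in naive cells, and the groups overlap. At the Snrpf start on chr10 (93589609 to 93589908, minus strand), reads were 104 and 30 at the peak and 18 and 12 in naive cells, or 86.1 and 24.5 in signal at the peak and 20.4 and 13.9 in naive cells. Peak replicate 1 accounts for most of the Snrpf reads, and the other peak library lies close to the naive libraries. The other 5 windows with reads, at Snrpb2, Srsf6, 2 of the 4 starts of Hnrnpf and a further start of Snrpn, held 6 to 16 reads, each from 1 library alone.

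**Figure D5:**
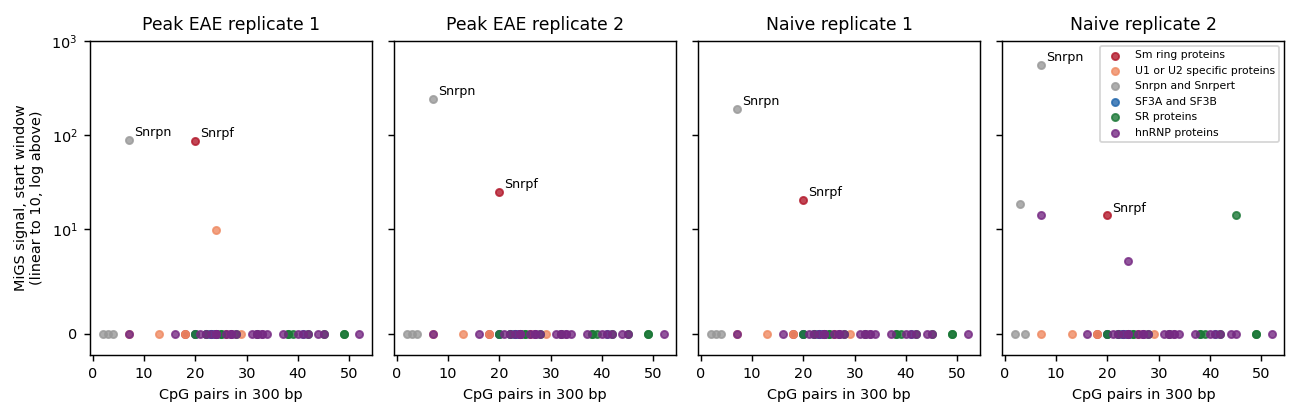
Scaled MiGS signal at the 61 start windows of 44 splicing factor genes (y axis, linear to 10 and logarithmic above) against the number of CpG pairs in the 300 bases of the window (x axis), in each of the 4 libraries. Nearly all windows lie at 0; Snrpn, with 7 CpG pairs, and Snrpf, with 20, are labelled.

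Short motifs in these windows were counted on both strands, as a description of sequence. The ETS core CCGGAA was found in 30 of the 61 windows (49.2%), beside 19.1% of all 20085 windows. The GC box GGGCGG was in 67.2%, beside 47.0%, the CCAAT box in 44.3%, beside 38.1%, the E-box CACGTG in 9.84%, beside 7.89%, and TATAAA in 11.5%, beside 12.7%. The ETS core, the GC box and the E-box each contain a CpG pair; the part of CpG content in these shares was not tested. The Snrpd2 and Snrpf windows held no CCGGAA, nor did that of Hnrnpa1, and the Snrpn window did, in the printed stretch as its reverse complement TTCCGG.

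Across whole gene ends (1000 bp outside to 500 bp inside each end) and gene bodies, no splicing factor gene passed the test between conditions. At gene ends, 27 of 51 members (52.9%) had 0 reads in all 4 libraries, beside 34.2% of 20666 genes. Limma on log2(signal + 1) tested 19 members among 10601 genes with at least 20 recovered reads and called 0 at an adjusted p under 0.05, beside 0% of all genes (0 higher and 0 lower); 1 member and 560 genes had an unadjusted p under 0.05. edgeR and DESeq2 on recovered reads called 0 as well. The 19 tested members passed through their reads and are not all members.

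The highest signal at gene ends was that of Snrpf, with 74.8 and 36.5 per kb at the peak and 34.4 and 35.6 in naive cells (limma adjusted p = 0.918). Snrpd2 followed with 11.6 and 32.1 per kb at the peak and 21.9 and 46.1 in naive cells (limma adjusted p = 0.909), and Hnrnph1 with 14.6 and 10.6 at the peak and 15.1 and 6.19 in naive cells (limma adjusted p = 0.933). For Snrpd2 and Hnrnph1 the libraries of the conditions overlap; for Snrpf both peak libraries lie above both naive libraries, peak replicate 2 only narrowly. The smallest p at gene ends belonged to Srsf4, with 23.5 and 9.53 per kb at the peak and 5.30 and 0.39 in naive cells, a log2 difference of 2.93 ± 1.09 (SE, limma adjusted p = 0.808). Next were Snrpd1, with 0.00 and 0.27 per kb at the peak and 1.14 and 9.29 in naive cells (limma adjusted p = 0.909), and Snrpd2. The Snrpd1 values rest on few reads, 0 and 1 at the peak and 3 and 24 in naive cells. Srsf4 had 85 and 35 reads at the peak and 14 and 1 in naive cells.

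Over gene bodies, limma tested 41 members of 16509 genes and called 0, beside 0% of all genes (499 genes and 2 members at an unadjusted p under 0.05); edgeR without a replicate block and DESeq2 also called 0. The bodies of 3 SR protein genes held the highest signal: Srsf5, with 80.9 and 145 per kb at the peak and 98.7 and 162 in naive cells (limma adjusted p = 0.969), Srsf6, with 56.2 and 86.5 at the peak and 75.5 and 75.02 in naive cells (limma adjusted p = 0.980), and Srsf4, with 28.1 and 64.1 at the peak and 45.2 and 156 in naive cells (limma adjusted p = 0.959). Their mean signal stood at percentiles 98.5, 95.9 and 95.8 of all gene bodies, while Srsf5 and Srsf6 starts had 0 to 12 reads. The smallest p belonged to Srsf7, with 17.2 and 23.4 per kb at the peak and 30.9 and 56.3 in naive cells, a log2 difference of -1.05 ± 0.47 (SE, limma adjusted p = 0.959). Snrpn was next, with 1.14 and 1.89 per kb at the peak and 1.71 and 4.84 in naive cells (-0.97 ± 0.45, limma adjusted p = 0.959), and then Srsf4 (-0.98 ± 0.50). For Snrpn and Srsf4 the libraries of the conditions overlap, and for Srsf7 the naive values lie above the peak values without passing the test.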

How the data were processed

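RNA-seq was made from 1 library and MiGS from 2 libraries per condition; groups come from the sample titles. The RNA-seq table holds raw counts and FPKM values per Ensembl gene, per the file headers; per the labels' protocols, the kit was stranded and removed ribosomal RNA; the sources used here do not say whether counting used strand, so the 19 members that overlap another RefSeq gene and members with close copies are uncertain. Bowtie2, TopHat, featureCounts, edgeR and build mm10 are named in the submitters' processing notes; the sources used here give neither their roles nor versions. The deposited MiGS signal per 50 bp window is whole reads divided by a size factor: 100% of values came out whole within 0.001. A window missing from a library was taken as 0 reads; neighbouring windows share fragments, so summed window reads count fragments more than once. Recovered reads over windows were 43970332 and 35285601 at the peak and 30424742 and 36501153 in naive cells, on chromosomes 1 to 19.

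Symbols were matched by Ensembl ID; 506 of 42303 rows had none (0.0647% of peak and 0.0573% of naive counts). TMM factors (edgeR 4.0.16) were estimated on genes with at least 50 counts, and 0.5 was added to each count for log2 ratios; called means at least 2-fold, or 1.5-fold, apart. Steps were run on simulated data, with counting error alone for RNA. The MiGS simulation used large changes, a small spread between libraries and regions with more reads than the test required. It does not show how the MiGS test performs at the spread of the real libraries. Because the deposited MiGS values are scaled signal, limma 3.58.1 with a variance trend on log2(value + 1) was the main test in place of the planned count test, two-sided, with Benjamini-Hochberg adjustment over all genes with at least 20 recovered reads; fold changes on that scale understate low values. edgeR's quasi-likelihood test and DESeq2 1.42.0 on recovered reads were alternatives. The design text calls the MiGS replicates biological, without saying whether each is its own pool of mice, so p-values cover only the spread between libraries, which may be technical. RefSeq (GRCm38.p6) gave gene spans, starts and sequences; all 51 members matched a gene and 44 a start. Any member could be named; intervals are given for members at least 1.5-fold apart and the 3 highest and lowest of each family, FPKM for the 10 highest at the peak, up to 3 genes of each pathway list with at least 200 counts and the largest ratio in either direction, and MiGS values for the 3 smallest p and 3 highest signals; the levels and pairs set beside them were chosen after their values were seen. Members and lists were chosen with earlier results of these data known. Other tools were R 4.3.3, Python 3.11.15 and scipy 1.17.1.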

Additional observations from a re-analysis of the deposited data

How the results depend on the processing

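The direction of the group held under every scaling and minimum tried: the median log2 ratio of the members was 0.41 after TMM scaling, 0.32 with library totals, 0.28 with upper quartile scaling and 0.32 from the ratio of the deposited FPKM values. The count of members at least 2-fold higher was 4, and 1 (Snrpd1) with upper quartile scaling; at 1.5-fold it was 17, and 10 with upper quartile scaling. With a minimum of 200 counts 0 members were at least 1.5-fold lower, because Snrpn has fewer counts. Single members moved beyond their counting interval in 27 cases with library totals, 27 with FPKM ratios, 36 with upper quartile scaling, and 1 each with a minimum of 200 counts or none; none of those past 1.5-fold changed direction. In MiGS, a fit with a replicate block called 0 members at gene ends by limma or edgeR; over gene bodies limma called 0 and edgeR 2 members (Srsf4 and Snrpn, both lower at the peak). Among all genes, where each tool called 0 without the block, limma with the block called 57 higher and 430 lower at ends and 4 higher and 145 lower over bodies, and edgeR 17 and 275 at ends and 58 and 584 of 16509 over bodies, so its 2 calls among 41 members stand near that background. The replicate numbers are shared only by name: deviations of same-numbered libraries correlated at 0.150 over ends and 0.124 over bodies. Leaving out each MiGS library in turn gave 0 to 0 member calls at ends and bodies. The RNA libraries have no replicate to leave out, so the spread between pools or library preparations was not measured. Intervals of the ratios cover counting error only, and the full error may be larger. Members with few counts, such as Snrpn and Snrpf, have the widest intervals. At 2 MiGS libraries per condition, no call over the members does not show equal methylation.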
